A study of Mus musculus with 12 samples.

Results

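The 10 genes described here encode junction proteins, transporters and vesicle proteins by which retinal capillaries form the blood-retina barrier. They are Cldn5, Ocln, Tjp1, Mfsd2a, Slc38a5, Slco1c1, Abcb1a, Itm2a, Plvap and Cav1, and they were taken by symbol from a table of 57073 gene models. Each symbol had a single row, and all 10 passed the filter on low counts with which 18275 genes were tested. In mouse retina with oxygen-induced retinopathy (OIR), 16.2% of all tested genes were higher and 14.8% lower than in normoxic retina. Of the 10 barrier genes, 5 rose, 1 fell and 4 did not pass the test. Plvap rose most, at 2.03-fold, followed by Cldn5 at 1.72-fold and Ocln at 1.55-fold, while the transporter gene Slco1c1 fell.

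The inner blood-retina barrier is formed by capillary endothelial cells that are sealed to each other by tight junctions, carry few vesicles and move nutrients through dedicated transporters. Norrin and other Wnt signals from surrounding cells switch on this programme, in which Cldn5, Mfsd2a and Slc38a5 are high and Plvap, a protein of fenestrated and leaky vessels, is low. New vessels that grow in ischaemic retina are known to leak.

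The study profiled poly-A RNA of whole retinas from C57BL/6 mice at postnatal day 17. Of 12 libraries, 6 came from mice kept in normoxic air and 6 from OIR mice, which are labelled with 75% oxygen. In the OIR model, oxygen exposure of pups closes retinal capillaries, and abnormal vessels grow after the return to room air. The labels give neither the days of exposure nor the number of animals behind a library, so the p-values rest on the spread among libraries, part of which could be technical. Total counts per library ran from 17361979 to 21594618, so that 1 count was worth 0.0463 to 0.0576 CPM (a count divided by its library's total, on a common scale). All 8 markers of Müller glia, the main glia of the retina, were counted and tested. Some lens and red cell genes also passed the filter, so passing it does not identify the tissue.

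By the quasi-likelihood test of edgeR, 31.0% of the 18275 tested genes passed a Benjamini-Hochberg adjusted p of 0.05, 16.2% higher and 14.8% lower in OIR. Against that background, 5 of 10 barrier genes higher and 1 of 10 lower are descriptions of a small list chosen with earlier results known. In 5 of the 10 the OIR and normoxic ranges were apart, namely Cldn5, Ocln, Plvap and Cav1, which were above, and Slco1c1, which was below. Over all tested genes the ranges were apart in 16.4%, with OIR above in 9.12% and below in 7.31%. The median log2 fold change (OIR minus normoxic) was 0.30 over the 10 genes and -0.01 over all tested genes.

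**Figure D1:**
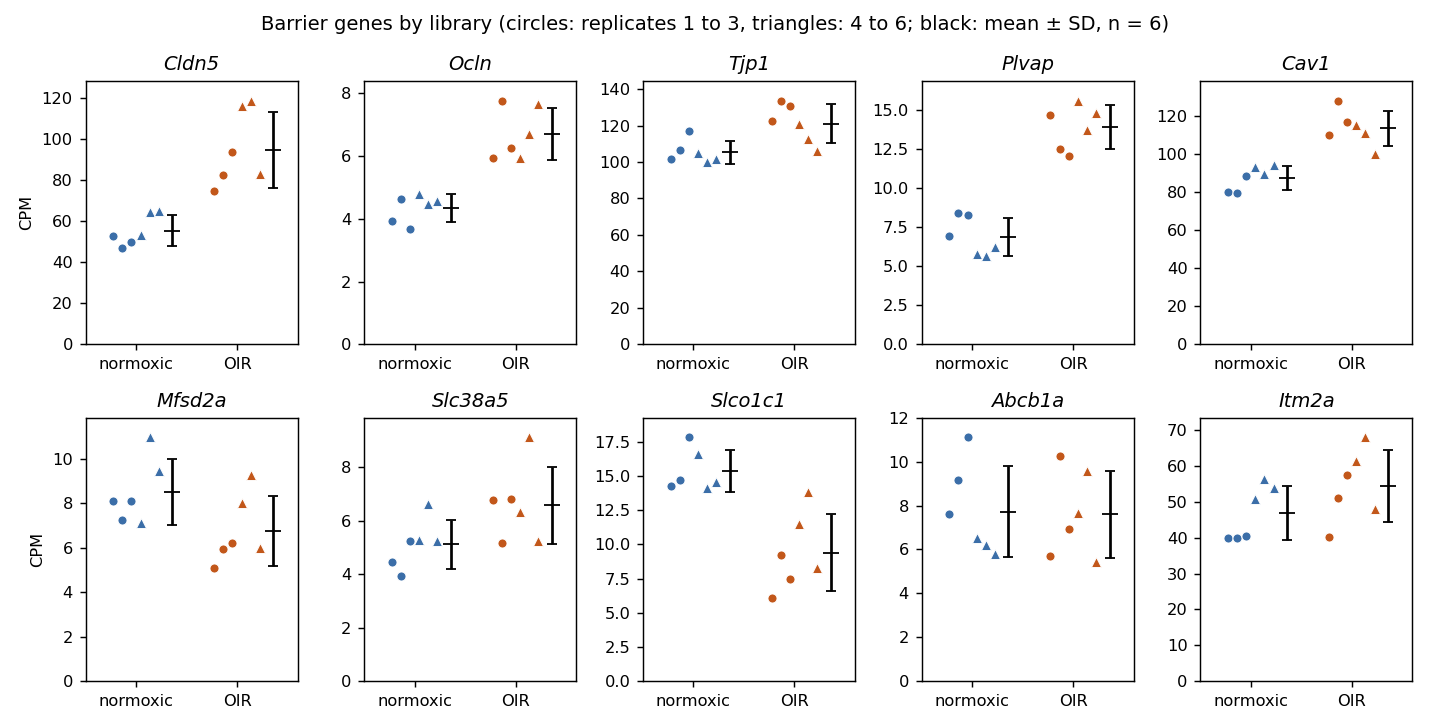
Level of each of the 10 barrier genes in CPM (vertical axis, from 0) in the 6 normoxic and 6 OIR libraries, 1 point per library, with the mean and SD in black. The groups are apart in Cldn5, Ocln, Plvap, Cav1 and Slco1c1 and overlap in the other 5 panels.

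Promoter windows of 300 bases, from 250 before to 50 after a gene's start, were found for 9 of the 10 genes in the RefSeq table of build GRCm38.p6, in 11 windows. Letters of the core to which hypoxia-inducible factors bind (ACGTG or GCGTG, searched on both strands) lay in windows of 6 of the 9 genes and in 7 of the 11 windows. Of 32851 windows in the table, 43.8% held such a core. The TCF/LEF letters of Wnt signalling (CTTTGAT or CTTTGAA) lay only in the window of Abcb1a, at 2 places, and in 8.65% of all windows. No member window held ACCGGAA (ETS, in 3.72% of all windows) or ACAATGG (SOX, in 3.66%). The letters are matches, and binding was not measured. Printed below are the 250 bases before the start of Cldn5 and Cav1, which rose, and of Mfsd2a and Slc38a5, which did not pass the test, since these 4 span windows with no match and with the most. Capitals mark matches to the hypoxia core, where CACGT and CACGC are cores read on the opposite strand. Slc38a5 shows the palindrome of which each strand holds a core, counted as 2 overlapping matches, and Slco1c1, which fell, has the same overlapping pair 20 to 21 bases past its start.
Cldn5, chr16:18776597-18776846, plus strand: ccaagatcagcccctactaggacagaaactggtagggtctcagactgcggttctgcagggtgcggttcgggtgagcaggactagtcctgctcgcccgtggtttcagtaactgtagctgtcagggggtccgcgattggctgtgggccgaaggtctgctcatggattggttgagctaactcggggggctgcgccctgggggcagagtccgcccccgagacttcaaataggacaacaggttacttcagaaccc
Cav1, chr6:17306085-17306334, plus strand: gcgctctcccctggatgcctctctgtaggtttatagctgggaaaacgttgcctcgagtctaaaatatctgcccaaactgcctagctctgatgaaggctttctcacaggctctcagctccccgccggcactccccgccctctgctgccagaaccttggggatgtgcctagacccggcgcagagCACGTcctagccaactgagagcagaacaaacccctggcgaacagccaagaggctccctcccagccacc
Mfsd2a, chr4:122961189-122961438, minus strand: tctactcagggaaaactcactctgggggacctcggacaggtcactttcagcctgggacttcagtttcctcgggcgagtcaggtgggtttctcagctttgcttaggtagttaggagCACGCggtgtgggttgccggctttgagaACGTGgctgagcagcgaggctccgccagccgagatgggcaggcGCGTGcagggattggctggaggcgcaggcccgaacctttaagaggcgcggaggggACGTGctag
Slc38a5, chrX:8271131-8271380, plus strand: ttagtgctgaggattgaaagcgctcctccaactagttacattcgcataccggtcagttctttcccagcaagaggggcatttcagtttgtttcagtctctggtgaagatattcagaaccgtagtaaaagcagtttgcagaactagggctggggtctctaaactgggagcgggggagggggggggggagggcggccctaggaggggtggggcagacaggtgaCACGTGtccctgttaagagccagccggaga
Cldn5 had 0 matches in its window, Cav1 had 1 in the first of its 2 windows and Mfsd2a had 4.

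Cldn5 encodes claudin-5, the main strand-forming claudin of endothelial tight junctions (chromosome 16, 18595597 to 18597012 in build GRCm39, plus strand). Its lowest, median and highest normoxic levels were 46.8, 53.0 and 64.7 CPM, and in OIR 74.5, 88.3 and 119 CPM. Every OIR library lay above every normoxic one, with OIR replicates 4 and 5 highest. Means were 55.3 ± 7.57 and 94.7 ± 18.6 CPM (SD, n = 6 each), a log2 fold change of 0.79 ± 0.11 (SE, edgeR adjusted p = 3.0e-05).

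Ocln encodes occludin, a strand protein of tight junctions in endothelium and in pigment epithelium (chromosome 13, 100633015 to 100689226, minus strand). It was the least counted of the 10, with 64 counts in its lowest library. Normoxic libraries had 3.69, 4.52 and 4.80 CPM as lowest, median and highest level, and OIR libraries 5.93, 6.48 and 7.77 CPM. The groups were apart, and the log2 fold change was 0.63 ± 0.12 (SE, edgeR adjusted p = 6.2e-04).

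Tjp1 encodes ZO-1, the scaffold that ties junction strands to actin, and is made by many retinal cell types (chromosome 7, 64945913 to 65177529, minus strand). Its levels were 99.95, 103 and 117 CPM in normoxic and 106, 122 and 134 CPM in OIR libraries. Normoxic replicate 3, the highest of its group, lay above OIR replicates 5 and 6. Tjp1 rose by the smallest step of the 5, 1.16-fold, with a log2 fold change of 0.21 ± 0.05 (SE, edgeR adjusted p = 0.0061).

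The other junction genes examined were 14 strand, adhesion and plaque genes, of which Cldn3 was too low to test. Of the 13 tested, 8 rose, 1 fell and 4 did not pass (edgeR adjusted p), against 16.2% higher and 14.8% lower over all tested genes. The median log2 fold change was 0.47 against -0.01 over all tested genes. F11r, which encodes the adhesion molecule JAM-A, had means of 5.24 CPM in normoxic and 12.2 CPM in OIR retina and rose 2.34-fold (edgeR adjusted p = 2.8e-07). Esam, an adhesion gene of endothelial junctions, rose 1.42-fold (edgeR adjusted p = 8.8e-05). The member that fell was Cgn, which encodes the plaque protein cingulin, with a log2 fold change of -0.42 ± 0.09 (SE, edgeR adjusted p = 9.4e-04). The fall of Cgn was -0.55 within replicates numbered 1 to 3 and -0.27 within those numbered 4 to 6, where it did not pass (edgeR adjusted p = 0.103). Within numbers 4 to 6, 5 of these genes rose and 0 fell.

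Plvap encodes the protein of the diaphragms that span fenestrae and caveolae (chromosome 8, 71950409 to 71964396, minus strand). Its lowest, median and highest levels were 5.69, 6.61 and 8.40 CPM in normoxic and 12.1, 14.2 and 15.6 CPM in OIR libraries. The lowest OIR library stood well above the highest normoxic one. Means were 6.90 ± 1.21 and 13.9 ± 1.40 CPM (SD, n = 6 each), and the log2 fold change was 1.02 ± 0.12 (SE, edgeR adjusted p = 2.6e-06).

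Cav1 encodes caveolin-1, the membrane coat protein of caveolae, which endothelium, smooth muscle and Müller glia all make (chromosome 6, 17306334 to 17341451, plus strand). Levels were 79.7, 89.1 and 94.2 CPM in normoxic and 100.1, 113 and 128 CPM in OIR libraries. The groups were apart, and Cav1 rose 1.30-fold with a log2 fold change of 0.38 ± 0.06 (SE, edgeR adjusted p = 4.7e-05).

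Of 8 other caveola and vesicle genes, 6 rose and 2 did not pass, against 16.2% higher and 14.8% lower over all tested genes. The median log2 fold change of the 8 was 0.39. None fell by edgeR, by DESeq2 or at an unadjusted p under 0.05 in edgeR (0 of 8 each). Cavin1, which encodes a coat protein needed to form caveolae, had means of 11.1 CPM in normoxic and 30.9 CPM in OIR retina and rose 2.81-fold (edgeR adjusted p = 2.4e-10). Ehd2, an ATPase gene of the caveolar neck, rose 1.97-fold (edgeR adjusted p = 2.0e-08).

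Mfsd2a encodes the endothelial carrier of lysolipids that restrains caveolar transcytosis (chromosome 4, 122840643 to 122854981, minus strand). Normoxic libraries had 7.12, 8.12 and 10.98 CPM as lowest, median and highest level, and OIR libraries 5.09, 6.11 and 9.30 CPM. The groups overlapped, with OIR replicate 5 above 4 normoxic libraries. Its log2 fold change of -0.32 ± 0.15 (SE) did not pass (edgeR adjusted p = 0.118). Of 12 fits that each left out a library, 11 did not pass either (edgeR adjusted p of up to 0.249). The other, without OIR replicate 5, gave -0.44 and passed (edgeR adjusted p = 0.0296).

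Slco1c1 encodes OATP1C1, a thyroxine carrier of barrier endothelium that astrocytes also make (chromosome 6, 141470094 to 141515903, plus strand). It had 14.1, 14.7 and 17.9 CPM in normoxic and 6.04, 8.74 and 13.8 CPM in OIR libraries. All OIR libraries lay below all normoxic ones, with OIR replicate 5 just under the lowest of them. Means were 15.4 ± 1.52 CPM in normoxic and 9.40 ± 2.84 CPM in OIR retina (SD, n = 6 each), and Slco1c1 had a log2 fold change of -0.70 ± 0.15 (SE, edgeR adjusted p = 0.0018). Its OIR libraries varied most of all 10 genes, with a coefficient of variation of 30.2% against 9.92% in normoxic ones. Beside this fall, 6 of 7 astrocyte markers rose, against 16.2% of all tested genes. Their summed level was 56.4 to 83.4 CPM in normoxic and 246 to 416 CPM in OIR libraries. Much of that rise was Gfap, with means of 16.4 CPM in normoxic and 224 CPM in OIR retina, against 70.8 and 328 CPM for the sum. The other called markers rose from 1.30-fold in Agt to 4.24-fold in Gja1, and S100b did not pass (edgeR adjusted p = 0.133). The part of astrocytes in the result was not tested.

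Slc38a5 encodes SNAT5, a glutamine carrier known as a Norrin target in retinal endothelium (chromosome X, 8137372 to 8146418, plus strand). Its levels were 3.93, 5.24 and 6.63 CPM in normoxic and 5.18, 6.55 and 9.13 CPM in OIR libraries, with overlap. The log2 fold change of 0.37 ± 0.16 (SE) did not pass (edgeR adjusted p = 0.082). Without normoxic replicate 5 it was 0.45 and passed (edgeR adjusted p = 0.034). The other 11 fits that left out a library did not pass (edgeR adjusted p of up to 0.22).

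Abcb1a encodes the drug efflux pump P-glycoprotein (chromosome 5, 8710077 to 8798575, plus strand), and reads of its close copy Abcb1b could be split with it, so its counts are less certain. It had 5.77, 7.05 and 11.1 CPM in normoxic and 5.41, 7.30 and 10.3 CPM in OIR libraries. The ranges were nearly the same, and the log2 fold change was -0.02 ± 0.18 (SE, edgeR adjusted p = 0.96). Its sign was not stable, since 5 of the 12 fits that left out a library gave a positive value, of up to 0.11.

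Itm2a encodes a membrane protein enriched in barrier endothelium (chromosome X, 106440705 to 106446982, minus strand). Normoxic libraries had 39.9, 45.7 and 56.3 CPM, and OIR libraries 40.1, 54.3 and 68.1 CPM. The groups overlapped over most of their range, and the log2 fold change of 0.22 ± 0.12 (SE) did not pass (edgeR adjusted p = 0.164). Without OIR replicate 1, the lowest of its group, it was 0.30 and just passed (edgeR adjusted p = 0.0467). The other 11 fits that left out a library did not pass (edgeR adjusted p of up to 0.371). Normoxic Itm2a levels parted between replicate numbers 1 to 3 and 4 to 6. With a block for these sets the log2 fold change was 0.23 and passed (edgeR adjusted p = 0.0315).

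Of 15 other carriers, pumps and receptors of barrier endothelium, 9 rose, 3 fell and 3 did not pass (edgeR adjusted p). Their median log2 fold change was 0.35, and over all tested genes 16.2% were higher and 14.8% lower. Slc2a1, the glucose transporter gene of barrier vessels and of other retinal cells, had means of 245 CPM in normoxic and 402 CPM in OIR retina and rose 1.65-fold (edgeR adjusted p = 7.4e-09). Slc7a5, a large neutral amino acid transporter gene, rose 1.68-fold (edgeR adjusted p = 3.9e-07). Slco1a4, an organic anion carrier gene of brain and retinal endothelium with close relatives in its cluster, fell from a mean of 24.1 CPM in normoxic to 11.5 CPM in OIR retina, a log2 fold change of -1.056 ± 0.151 (SE, edgeR adjusted p = 3.1e-05). Its fall was -1.44 within numbers 1 to 3 and -0.58 within 4 to 6. Slc22a8, an organic anion exchanger gene, fell by 0.37 ± 0.12 (SE, edgeR adjusted p = 0.027). This call of Slc22a8 was lost without normoxic replicate 3 or 4 or OIR replicate 1 or 2 (edgeR adjusted p of 0.058 to 0.0689) and within both sets of numbers.

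Genes of Norrin and Wnt signalling and transcription factors that direct the barrier programme rose in 11 of 14 cases, fell in 1 and did not pass in 2. Over all tested genes 16.2% were higher and 14.8% lower. The log2 fold changes of the 14 had a median of 0.48, against -0.01 over all tested genes. Beside the Norrin receptor genes Lrp5 (0.94) and Fzd4 (0.62), both higher, Reck, which encodes a Wnt co-receptor component, fell, with a log2 fold change of -0.42 ± 0.07 (SE, edgeR adjusted p = 2.6e-04).

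**Figure D2:**
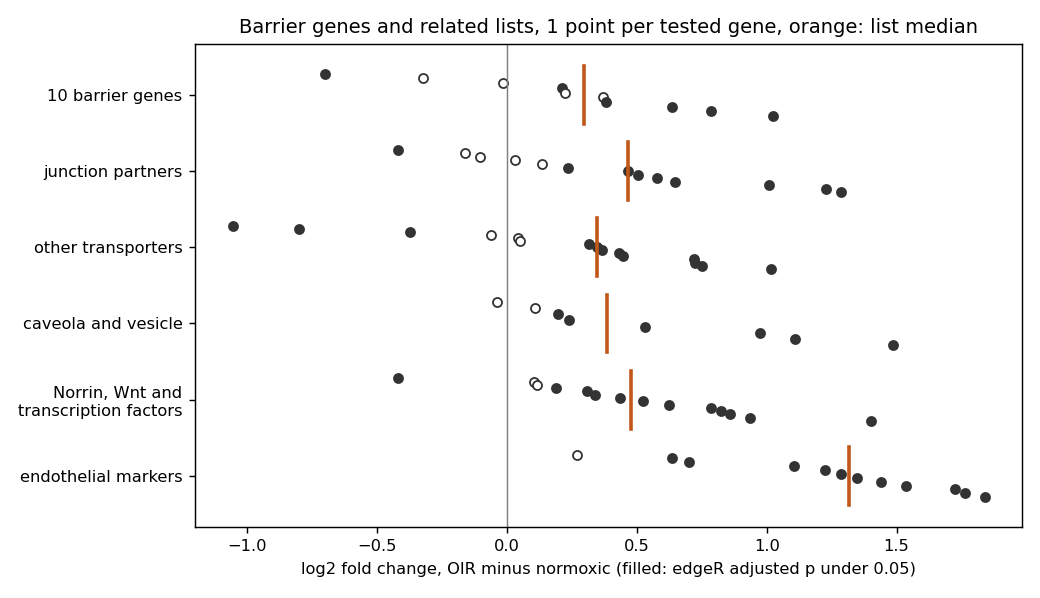
Log2 fold change (OIR minus normoxic, horizontal axis) of each tested gene in the 10 barrier genes and 5 related lists, filled where the edgeR adjusted p was under 0.05, with the list median in orange. Medians of the first 5 rows lie between 0.30 and 0.48, and that of the endothelial markers is 1.32.

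Levels between genes were compared per length, in FPKM (fragments scaled to gene length and library depth). In normoxic retina Cldn5 stood first at 39.0 ± 5.35 FPKM (SD, n = 6), then Itm2a at 26.9 ± 4.40, Cav1 at 25.4 ± 1.83 and Tjp1 at 13.5 ± 0.785 FPKM. The libraries of Itm2a and Cav1 overlapped, while those of Cldn5 and Itm2a and those of Cav1 and Tjp1 did not. The lower 6 followed from Mfsd2a at 3.78 ± 0.655 through Plvap, Slco1c1, Slc38a5 and Abcb1a to Ocln at 1.03 ± 0.104 FPKM, each overlapping the next. In OIR retina Plvap, at 7.002 ± 0.705 FPKM, no longer overlapped Mfsd2a at 3.00 ± 0.699 FPKM. Slco1c1 stood at 1.81 ± 0.548 FPKM in OIR against 2.96 ± 0.294 FPKM in normoxic retina and overlapped Ocln there.

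**Figure D3:**
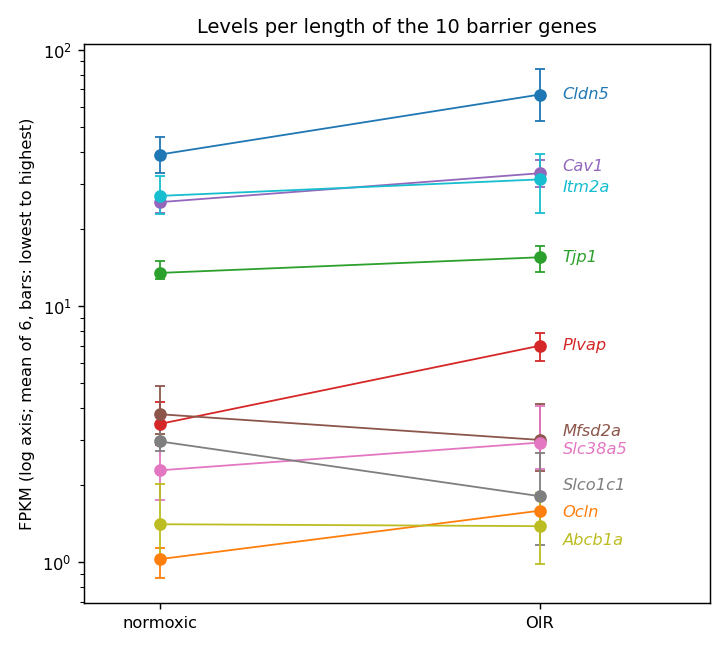
Mean FPKM of each gene (log axis) in normoxic and OIR retina, with bars from the lowest to the highest of 6 libraries. Plvap stands at 3.47 FPKM among the lower genes in normoxic retina and at 7.002 FPKM, apart from them, in OIR.

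Endothelial RNA itself differed between the groups. Of 12 pan-endothelial markers, 11 rose by edgeR, against 16.2% of all tested genes, and only Tek did not pass. None fell by edgeR, by DESeq2 or at an unadjusted p under 0.05 in edgeR (0 of 12 each). Pecam1 and Cdh5, which encode endothelial adhesion molecules, both rose, Pecam1 2.44-fold (edgeR adjusted p = 1.4e-09) and Cdh5 3.40-fold (edgeR adjusted p = 2.1e-09). The summed level of the markers was 103 to 138 CPM in normoxic and 226 to 317 CPM in OIR libraries. In bulk retina, more endothelial cells and more RNA per cell cannot be told apart. Log2 fold changes of the 12 markers ran from 0.27 to 1.84 with a median of 1.32, and 0 of the 10 barrier genes reached that median. Plvap and Cldn5 each exceeded 3 of the 12 markers, Ocln, Cav1 and Slc38a5 exceeded 1, and the other 5 exceeded 0.

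The counts were therefore also tested with libraries scaled to the mean log2 level of these 12 markers, which gives change per unit of endothelial marker RNA. On that scale 94.5% of all tested genes passed the test, 92.7% lower in OIR and 1.80% higher, and the median of all genes was -1.25. A gene whose RNA comes mainly from other cells is lower on that scale by construction, so the count of barrier genes, 9 of 10 lower, is no more than the background. Values of the barrier genes kept the order and spread they had per library, since the scale moved each gene by a similar step. It moved the median of all genes from -0.01 to -1.25. The p-values that follow test against 0 and not against that median. Plvap was at -0.23 ± 0.17 (log2, SE) and did not pass (edgeR adjusted p = 0.186), Cldn5 at -0.47 ± 0.11 (edgeR adjusted p = 1.8e-04) and Ocln at -0.60 ± 0.18 (edgeR adjusted p = 0.0025). At the other end were Mfsd2a at -1.58 ± 0.16 (edgeR adjusted p = 4.9e-12) and Slco1c1 at -1.98 ± 0.15 (edgeR adjusted p = 1.3e-14). Slc38a5, Cav1, Itm2a, Tjp1 and Abcb1a lay between, at -0.88, -0.85, -1.03, -1.03 and -1.29. With the median of the markers in place of their mean, Cldn5 (-0.16, edgeR adjusted p = 0.229) and Ocln (-0.28, edgeR adjusted p = 0.164) did not pass, and Plvap was at 0.08.

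The same can be read from counts as a share of the summed counts of the 12 markers. Cldn5 counts were 41.9% to 54.7% of that sum in normoxic and 31.2% to 39.9% in OIR libraries. Mfsd2a counts were 6.11% to 9.33% of the sum in normoxic and 2.14% to 2.94% in OIR libraries. For Slco1c1 the share was 10.6% to 15.1% in normoxic and 2.53% to 4.37% in OIR libraries. For Plvap it was 4.54% to 8.13% and 4.33% to 6.56%, with overlap. The share was lower in OIR with no overlap in 8 of the 10 genes, all but Plvap and Ocln. Over all tested genes the shares were apart in 78.9%, with OIR below in 77.9% and above in 1.00%, so a count of 8 of 10 is near the background.

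**Figure D4:**
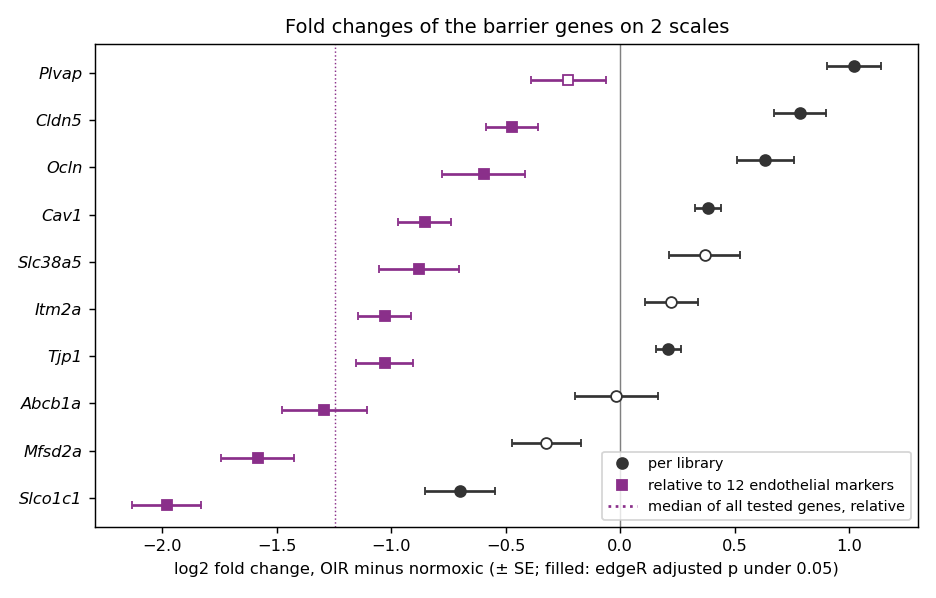
Log2 fold change (OIR minus normoxic) with SE of the 10 barrier genes, per library (circles) and relative to 12 endothelial markers (squares), filled where the edgeR adjusted p was under 0.05. Every square lies left of 0, from -0.23 in Plvap to -1.98 in Slco1c1, and the dotted line marks the median of all genes on the relative scale, -1.25.

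A pair of ratios within each library set vesicle genes against barrier genes, without regard to scaling. Plvap counts were 0.0887, 0.121 and 0.180 of Cldn5 counts in the lowest, median and highest normoxic library and 0.116, 0.144 and 0.198 in OIR libraries. The groups overlapped, and the log2 difference of 0.26 did not pass (exact two-sided permutation test, p = 0.240, adjusted p = 0.240 over 2 ratios). Within replicates numbered 1 to 3 the difference was -0.01, and within 4 to 6 it was 0.52. Cav1 counts were 8.13, 10.4 and 13.1 times Mfsd2a counts in normoxic and 11.9, 17.7 and 21.5 times in OIR libraries. OIR replicate 5, the lowest of its group, lay below normoxic replicate 4. This ratio was higher in OIR by a log2 difference of 0.72, or 1.65-fold (exact two-sided permutation test, p = 0.0043, adjusted p = 0.0087 over 2 ratios). It was higher by 0.96 within numbers 1 to 3 and by 0.47 within 4 to 6, where the exact tests gave p = 0.10, the smallest that 3 against 3 allows, and p = 0.20.

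**Figure D5:**
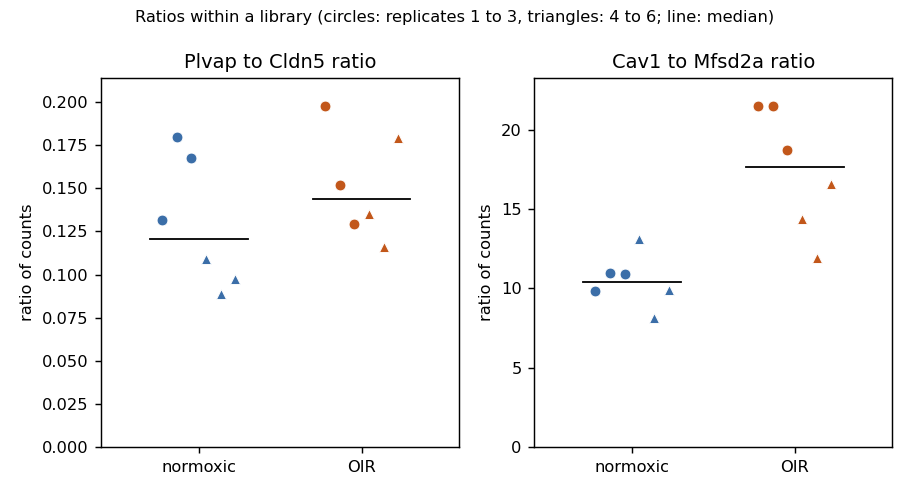
Ratio of Plvap to Cldn5 counts and of Cav1 to Mfsd2a counts in each library (vertical axes from 0), with the group median as a line. Medians of the second ratio are 10.4 in normoxic and 17.7 in OIR libraries, while the first overlaps widely, with normoxic replicates 1 to 3 above 4 to 6.

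Within the OIR group, Cldn5, Mfsd2a, Slco1c1 and Itm2a were each lowest in replicate 1 and highest in replicate 5. OIR replicate 5 was the highest of its group in 5 genes, Cldn5, Mfsd2a, Slc38a5, Slco1c1 and Itm2a, and also in the summed endothelial markers. OIR replicate 2 was highest in 4, Ocln, Tjp1, Abcb1a and Cav1, and OIR replicate 4 in Plvap. OIR replicate 1 was lowest in 5 genes.

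Normoxic replicates numbered 1 to 3 and 4 to 6 did not overlap in 5 of the 10 genes, against 38.6% of all tested genes. OIR replicates split in the same way did not overlap in 1 of the 10, Tjp1, against 19.4% of all tested genes. The labels give these numbers no meaning. The share of counts from mitochondrial genes parted between the groups and, in normoxic retina only, between the sets. It was 3.75% to 3.91% in normoxic replicates 1 to 3, 3.25% to 3.31% in normoxic replicates 4 to 6 and 2.76% to 3.13% in OIR libraries. The OIR sets overlapped, at 2.76% to 3.13% in replicates 1 to 3 and 3.04% to 3.13% in 4 to 6. The part of this share in the results was not tested. Plvap was at 6.96 to 8.40 CPM in normoxic replicates 1 to 3 and 5.69 to 6.26 CPM in 4 to 6, and Abcb1a parted in the same direction. Cldn5, Itm2a and Cav1 parted in the opposite one, with Itm2a at 39.9 to 40.5 and 51.0 to 56.3 CPM. Log2 fold changes within numbers 1 to 3 and within 4 to 6 were 0.73 ± 0.14 and 1.34 ± 0.13 (SE) for Plvap, and 0.75 ± 0.07 and 0.82 ± 0.11 for Cldn5. Cav1 had 0.51 ± 0.06 and 0.26 ± 0.06, and Slco1c1 -1.04 ± 0.15 and -0.41 ± 0.16, the last not past the test (edgeR adjusted p = 0.0783). Whether the fold changes differed between these sets was not tested. Within numbers 1 to 3, Mfsd2a was lower and Itm2a higher past the test (-0.44 and 0.31, edgeR adjusted p = 0.0302 and 0.0101), while within 4 to 6 neither was (edgeR adjusted p = 0.471 and 0.278).

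Markers of other cells that could carry these genes were summed in each library. As background to the counts below, 16.2% of all tested genes were higher and 14.8% lower in OIR. Pericyte markers rose in 9 of 9 cases, with summed levels of 176 to 231 CPM in normoxic and 441 to 651 CPM in OIR libraries. The pigment epithelium list, whose cells make Ocln and Tjp1, had 7 of 8 genes tested, none of which passed (edgeR adjusted p of 0.116 to 0.923), at 18.3 to 97.1 CPM in normoxic and 41.4 to 66.2 CPM in OIR libraries. Of 8 Müller glia markers 1 rose and 4 fell, with overlapping sums of 3912 to 4705 and 3549 to 4490 CPM. Of 6 lens markers 3 were tested and 1 fell, at sums of 2.23 to 5.07 CPM in normoxic and 1.77 to 2.71 CPM in OIR libraries, with Lim2 at 0 in every library. Smooth muscle markers, at 5.78 to 7.54 and 40.9 to 78.0 CPM, rose in 2 of the 2 genes tested, and 3 of 3 red cell genes rose. The part of these cells in the results above was not tested.

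For each gene, those 2 of 12632 other genes with at least 5 CPM were sought whose log2 level, centred over the 12 libraries, differed least from it (root mean square difference, log2). Nearest to Plvap were Lamb2, a basement membrane laminin gene (0.15), and Ets2, a transcription factor gene (0.15), and nearest to Cldn5 were Ucp2 (0.15) and Rflnb (0.15). Cav1 lay nearest to Tgfb2, a growth factor gene (0.07), and Arhgef40 (0.07), Tjp1 to Picalm (0.05) and Tcf4 (0.06), and Ocln to Bcam (0.11) and Plk2 (0.11). For Slco1c1 the nearest were Pou3f3, a transcription factor gene (0.18), and Slitrk2 (0.20). The genes that did not pass the test had Clmp (0.14) and Erc1 (0.15) nearest to Mfsd2a, Tmsb10 (0.10) and Zfp619 (0.15) to Slc38a5, Fam83h (0.15) and Cxcl12 (0.18) to Abcb1a, and Col9a1 (0.12) and Cpne2 (0.12) to Itm2a. The SD of the 10 genes' own log2 levels over the 12 libraries ran from 0.14 in Tjp1 to 0.52 in Plvap.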

How the data were processed

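RNA from 12 retina libraries was sequenced after poly-A capture, per the labels' protocols. The submitters' processing notes name build GRCm39, HTSeq, Trimmomatic and HISAT2 version 2.0.5, without roles. Strand setting and annotation release: not given in the sources used here. Per the file headers, the deposited table holds raw counts and FPKM for each gene and library. Of its gene models, 1657 had no Ensembl identifier.

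Groups and replicate numbers came from sample titles. The test on counts used edgeR (version 4.0.16, in R version 4.3.3): filterByExpr (minimum count 10, total 15), TMM scaling, quasi-likelihood test, Benjamini-Hochberg adjustment over all tested genes and a threshold of 0.05. SEs are the fold change divided by the root of the F statistic. CPM used library totals. For the endothelial scale, normalization factors were the mean log2 CPM (0.5 added to counts) of 12 markers, taken as known without error. Ratios used exact permutation tests over 924 assignments. No libraries were merged, since chi-square over degrees of freedom was 2.98 to 14.1 between libraries of a group, above sampling noise.

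The 10 genes and the lists were chosen with earlier results of these data known. Named genes were the 10, the 2 with the smallest adjusted p in each direction of 4 lists, Pecam1, Cdh5 and the nearest genes. Alternatives were other filters, median-of-ratios factors, library totals, DESeq2 version 1.42.0, limma version 3.58.1 on log2(FPKM + 1) or log2(FPKM + 0.1), a replicate block, leaving out each library and fits within sets of replicate numbers. A block for these sets was chosen after seeing the data. On simulated counts for OIR against normoxic (18275 genes), with 50 genes changed by each fold, the share recovered was 24% for 1.25-fold, 56% for 1.5-fold, 74% for 2-fold and 96% for 4-fold changes. False calls numbered 8. The simulation changed a far smaller share of genes than the 31.0% called in the data. Its recovered shares therefore do not measure the power of the real test. Promoter windows came from RefSeq on another build, GRCm38.p6, and were matched by symbol. Some genes of the lists are not reported here by name.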

Additional observations from a re-analysis of the deposited data

How the results depend on the processing

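The 6 barrier genes past the test kept direction and call in 137 of 138 alternative fits, the exception being Slco1c1 within replicate numbers 4 to 6 (-0.41, edgeR adjusted p = 0.0783). Within numbers 1 to 3 and 4 to 6, 2 and 0 barrier genes were lower. Leaving out 1 library gave 1 to 2 lower (2 without OIR replicate 5) and 5 to 6 higher. Leaving out each library moved Mfsd2a between -0.44 and -0.24, Slc38a5 between 0.25 and 0.45, Itm2a between 0.15 and 0.30 and Abcb1a between -0.12 and 0.11 (log2). Abcb1a was 0.31 within numbers 4 to 6 and 0.004215 with a block for the sets of numbers, with which Itm2a passed (0.23). Mfsd2a was -0.44 and Itm2a 0.31 within numbers 1 to 3, both past the test.

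Numbers did not pair the libraries: same-numbered libraries correlated at -0.03 to 0.12 in their deviations from the group means. Normoxic replicates 1 to 3 each correlated best with OIR replicate 3, and 4 to 6 each with OIR replicate 5. Thus 2 of 6 normoxic libraries correlated best with their own number, and all with an OIR library of their own set of numbers. The main fit held no block for these sets. With the replicate number as a block, Slc38a5 (0.36) and Itm2a (0.22) passed, so that 7 barrier genes were higher. The number called over all tested genes moved between fits as well. Over the alternatives that left out no single library, the block for the sets aside, 2135 to 3770 genes were higher and 1536 to 3456 lower.

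On the endothelial scale, the median of the markers gave -0.16 for Cldn5, -0.28 for Ocln and 0.0817 for Plvap, and Plvap was -0.51 and past the test within numbers 1 to 3 and 0.11 within 4 to 6. The Plvap to Cldn5 difference was -0.0096 within numbers 1 to 3. The Cav1 to Mfsd2a difference was 0.96 and 0.47 within the sets, where 3 against 3 cannot bring an exact p under 0.10. With pairs by replicate number as a block it was 0.72 (exact sign-flip test, p = 0.0313). That p is the smallest that 6 pairs allow, and the numbers did not pair the libraries.

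Within numbers 4 to 6, 1536 of all genes were lower, and of the other junction genes 5 rose and 0 fell. With limma on either pseudocount, 2 of the latter fell, and 1 to 2 fell when a library was left out (2 without normoxic replicate 4). Of the other transporters, 1 fell within numbers 1 to 3 and 1 to 3 when a library was left out (1 without normoxic replicate 4 or OIR replicate 1 or 2). Fewer libraries enter the fits within sets. For the remaining differences the cause was not tested. Scaling by other factors or totals moved the median of all genes by 0.01 or less. Depth limits Ocln most, with 64 counts in its lowest library.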

Other observations

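Other carriers were picked out after their values were seen. Slco2b1, an organic anion carrier gene, rose 2.02-fold (edgeR adjusted p = 2.9e-06). Slc19a3, a thiamine carrier gene, fell by 0.80 on the log2 scale from a low mean of 1.91 CPM (edgeR adjusted p = 0.0352).

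Other junction genes were also picked out after their values were seen, among them Marveld2 and Lsr of tricellular junctions, where 3 cells meet. Marveld2 rose 1.56-fold (edgeR adjusted p = 0.0039) and Lsr 1.38-fold (edgeR adjusted p = 0.0324), both from means under 5 CPM. Libraries of the groups overlapped for Lsr, at 2.22 to 3.29 CPM in normoxic and 2.87 to 4.41 CPM in OIR, and were apart for Marveld2. Marveld3 rose 2.01-fold (edgeR adjusted p = 0.0039), also with overlap, at 3.07 to 6.85 CPM in normoxic and 4.69 to 14.0 CPM in OIR libraries. Cldn1, an epithelial claudin gene, rose 2.44-fold with overlap (edgeR adjusted p = 0.0237). Foxf2, a transcription factor gene of pericytes that supports the brain barrier, rose 2.64-fold (edgeR adjusted p = 3.8e-05).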
